A study of Saccharomyces cerevisiae with 6 samples.

Results

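RNA level and poly(A) tail length were compared between yeast depleted of the deadenylases Ccr4 and Pop2 and yeast depleted of the decapping enzyme Dcp2. Of the 6 direct RNA libraries of the series, 4 were used: both libraries of the Ccr4/Pop2 degron and both of the Dcp2 degron, chosen by the name of the depleted factors in the sample titles and paired by replicate number. The wild-type libraries were left out, so a difference does not tell in which strain a gene departed from its normal level. RNA level was described for all 4909 genes of the table, and tail length for the 4274 genes that had 20 or more reads in each of the 4 libraries.

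The Ccr4/Pop2 strain (LMA5601) carries an auxin-inducible degron (AID) with a 3Flag tag on CCR4 and a second AID, marked by KanMX6, on POP2, which the label names CAF1(YNR052c). The Dcp2 strain (LMA5574) carries a polyG-3Flag-AID cassette with kanMX on DCP2(YNL118c). Both are Mat a derivatives of the laboratory strain BY4741 and share 3 further changes: the TAO3 allele E1493Q, an A insert at minus 308 of RME1(YGR044c), and a construct at trp1-1 that holds TRP1, the estradiol-responsive activator Z3EVtf behind the URA3 promoter, and the auxin receptor gene TIR under Z3EV. Estradiol therefore switches on the receptor, and auxin then directs the tagged protein to destruction. Cells of both strains grew in rich medium (YPD) at 30 °C until the culture reached OD600 0.4, and depletion lasted 1 h with IAA, an auxin, at 100 µM and estradiol at 1 µM. Each strain is 1 genotype with 2 libraries, and the labels do not say whether those came from separate cultures. The p-values therefore cover these libraries only. The main fits set replicate number apart as a block, so p-values of single genes measure how far the 2 same-numbered differences disagree. The error they use is shared partly or wholly across genes, and they do not measure the spread between libraries of a strain.

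In budding yeast, cytoplasmic decay of most messenger RNAs begins at the poly(A) tail. The Ccr4-Not complex, whose nucleases are Ccr4 and Pop2 (also called Caf1), removes most of the tail, the Pan2-Pan3 nuclease trims it earlier, and Pab1 coats it. A short tail then allows Dcp2, with Dcp1, Pat1, Lsm1-7, Dhh1 and the Edc proteins, to remove the 5′ cap, after which Xrn1 digests the body of the RNA. Nonsense-mediated decay (NMD) and a few special transcripts reach decapping without prior deadenylation. Loss of deadenylases and loss of decapping thus block successive steps of a shared route.

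The libraries held 8450296 and 1825046 counts in the Ccr4/Pop2 degron and 1067250 and 1967303 in the Dcp2 degron (replicates 1 and 2). Every count of replicate 1 of the Ccr4/Pop2 degron was a multiple of 4, against 1215 to 1229 of 4909 genes in the other 3 libraries, so its counts may not be numbers of separate reads. The lowest count was 20 in replicate 1 of both degrons, and genes under that value there were not analysed here. Mating type fitted the label: all 6 a-specific genes had counts in every library, and of the 4 alpha-specific genes only SAG1 was in the table, with 28 and 7 counts in the Ccr4/Pop2 degron and 37 and 31 in the Dcp2 degron.

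The RNAs of the targeted genes came first. DCP2 (YNL118C) stood at 62.7 and 53.7 CPM (counts scaled for depth by TMM) in the Ccr4/Pop2 degron, against 25.3 and 24.3 CPM in the Dcp2 degron, where the gene carries the tag. Both Ccr4/Pop2 libraries lay above both Dcp2 libraries, with a log2 difference of 1.23 ± 0.20 (standard error, SE; edgeR adjusted p = 0.00185). POP2 (YNR052C), tagged in the other strain, had 45.7 and 33.6 CPM in the Ccr4/Pop2 degron and 57.4 and 36.8 CPM in the Dcp2 degron. These ranges overlap, and the log2 difference of -0.25 ± 0.19 was not called (adjusted p = 0.308). CCR4 was not analysed here. A degron acts on the protein, and whether the tags alter the RNA or the assignment of reads was not tested.

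Tails were longer in the Ccr4/Pop2 degron for nearly every gene. The median gene had a tail of 51.1 and 51.9 nt in the Ccr4/Pop2 degron, against 31.6 and 39.0 nt in the Dcp2 degron. The means were 51.5 ± 0.559 and 35.3 ± 5.19 nt (SD, n = 2 each), a difference of 16.2 nt, with 19.5 nt in the replicate 1 pair and 12.9 nt in the replicate 2 pair. Both Ccr4/Pop2 libraries lay above both Dcp2 libraries. A two-sided exact permutation test gave p = 0.333, the smallest value that 2 against 2 libraries allow. Read-weighted mean tails were 42.8 and 43.2 nt in the Ccr4/Pop2 degron and 30.4 and 33.9 nt in the Dcp2 degron.

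The whole distribution was displaced, as the plot of tail lengths by library shows. The middle 90% of genes (percentiles 5 to 95) spanned 39.7 to 61.3 and 41.4 to 62.2 nt in the Ccr4/Pop2 degron, against 20.2 to 46.1 and 29.0 to 52.5 nt in the Dcp2 degron. Genes with a median tail under 25 nt numbered 1 and 0 in the Ccr4/Pop2 degron, against 555 and 32 in the Dcp2 degron. Of 4274 genes, 2879 had longer tails at an adjusted p under 0.05 (limma), which is 67.4%, and 1 had a shorter tail, which is 0.0234%. Both Ccr4/Pop2 values exceeded both Dcp2 values in 4080 genes (95.5%), and the reverse held in 5 (0.117%). The Dcp2 libraries differed from each other more than the Ccr4/Pop2 libraries did, and the excess of genes under 25 nt came mainly from Dcp2 replicate 1. Leaving out either Ccr4/Pop2 library, in a fit without the block, left 1 call, against 3630 without Dcp2 replicate 1 and 4172 without Dcp2 replicate 2.

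**Figure D1:**
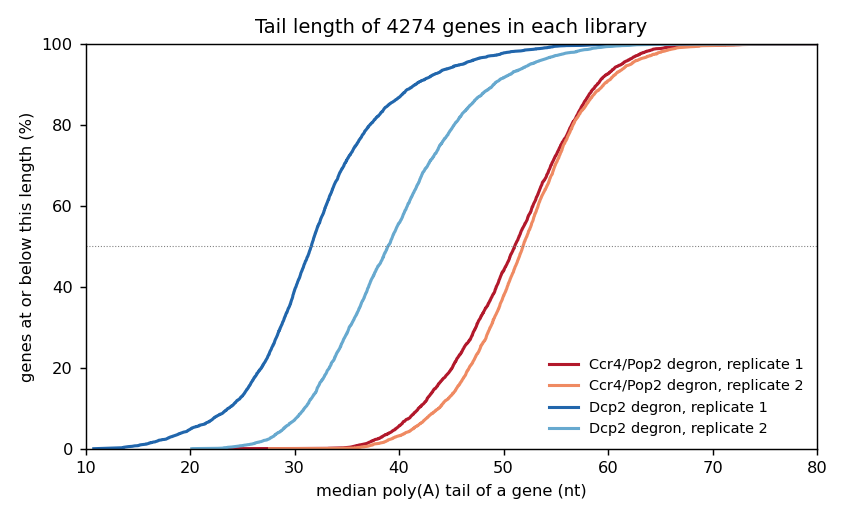
Cumulative share of 4274 genes (y axis, %) at or below a given median poly(A) tail length (x axis, nt) in each of the 4 libraries. Both Ccr4/Pop2 degron curves cross 50% near 51 to 52 nt, to the right of the Dcp2 degron curves, which cross at 31.6 and 39.0 nt and lie apart from each other.

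RNA levels moved in both directions. Of 4907 genes, 964 were higher in the Ccr4/Pop2 degron (19.6%) and 915 lower (18.6%), together 38.3%, by edgeR with the replicate number as a block and an adjusted p under 0.05. Libraries of both strains did not overlap in 1077 genes that were higher (21.9%) and 1122 that were lower (22.9%). The calls depended on the block: without it 0 genes passed, with 747 at an unadjusted p under 0.05. Fits that left out a library, which cannot hold the block, gave 96 and 389 calls without Ccr4/Pop2 replicate 1 or 2, and 175 and 54 without Dcp2 replicate 1 or 2. Scaling to total counts in place of TMM moved the median of all genes to -0.33, against 0.04, and the split to 332 higher and 1708 lower, so the differences below are relative to the typical gene. Across genes, the log2 differences of the replicate 1 and replicate 2 pairs correlated at a Spearman coefficient of 0.769 (4907 genes, which are not independent, and libraries of different depth).

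Genes of glucose uptake had the largest increases. HXT7 (YDR342C), a high-affinity hexose transporter, stood at 766 and 634 CPM in the Ccr4/Pop2 degron, against 62.9 and 60.1 CPM in the Dcp2 degron. That is 11.3-fold, a log2 difference of 3.50 ± 0.16 (SE, adjusted p = 2.16e-05). Its near-identical neighbour HXT6 gave 3.35 ± 0.16, and reads may be split between these copies. HXT4 stood at 321 and 214 CPM in the Ccr4/Pop2 degron and 28.7 and 23.8 CPM in the Dcp2 degron (3.33 ± 0.19). HXT2 reached 330 and 236 CPM in the Ccr4/Pop2 degron, against 62.2 and 42.2 CPM in the Dcp2 degron (2.44 ± 0.17). No library of 1 strain overlapped the other strain for any of these transporters. The low-affinity transporters differed less, with log2 differences of 0.57 for HXT1 (adjusted p = 0.0161) and 0.36 for HXT3, which was not called. Of the 12 measured genes of hexose transport and phosphorylation, 9 were higher and 0 lower, with a median of 1.42 (1.47 and 1.35 in the replicate 1 and 2 pairs). They include MTH1, a regulator of HXT transcription (2.45), the hexokinases HXK1 (1.97) and HXK2 (0.87), and the glucokinase GLK1 (0.83).

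Among the other genes with the 10 largest increases were genes of carbon and methionine metabolism. ALD6, the cytosolic acetaldehyde dehydrogenase, stood at 1217 and 932 CPM in the Ccr4/Pop2 degron, against 209 and 136 CPM in the Dcp2 degron (2.66 ± 0.14, adjusted p = 3.88e-05). MPC3, a subunit of the mitochondrial pyruvate carrier, had 132 and 439 CPM in the Ccr4/Pop2 degron and 25.3 and 55.7 CPM in the Dcp2 degron (2.74 ± 0.20). The values of these genes did not overlap between strains in any library. MET6, the methionine synthase, had 85.1 and 51.5 CPM in the Ccr4/Pop2 degron and 13.7 and 11.9 CPM in the Dcp2 degron (2.39 ± 0.23). Its Dcp2 degron values rest on 20 and 22 counts, the first being the lowest count of its library.

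**Figure D2:**
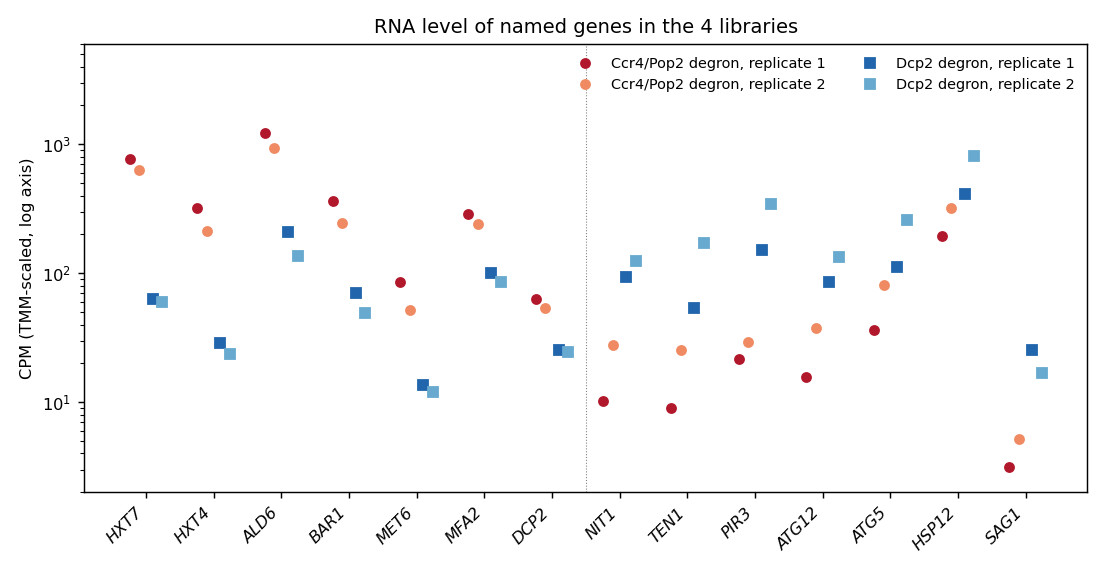
RNA level in CPM (y axis, log scale) of 14 genes in each library, with Ccr4/Pop2 degron libraries as circles and Dcp2 degron libraries as squares. The 7 genes left of the dotted line have both Ccr4/Pop2 degron points above both Dcp2 degron points, and the 7 genes right of it have both below.

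Genes specific to a-cells were higher. All 6 measured members were called higher, against 19.6% of all genes, with a median of 1.35. BAR1, the protease that degrades alpha-factor, stood at 364 and 245 CPM in the Ccr4/Pop2 degron, against 69.7 and 49.2 CPM in the Dcp2 degron (2.35 ± 0.16, adjusted p = 8.24e-05). MFA1 and MFA2, which encode the a-factor precursor, gave 2.24 and 1.51, the agglutinin subunit gene AGA2 1.19, the a-factor exporter gene STE6 0.64, and the alpha-factor receptor gene STE2 0.47. The a-specific groups did not overlap for any of these genes. SAG1, the alpha-cell agglutinin gene, went the other way, at 3.13 and 5.22 CPM in the Ccr4/Pop2 degron and 25.3 and 16.8 CPM in the Dcp2 degron (-2.63 ± 0.43, adjusted p = 0.00204), from the low counts given above. In the pheromone response list, 5 of 12 genes were higher (41.7%, against 19.6% of all), among them KAR4 (1.37), GPA1 (1.20) and FUS3 (0.97), and 2 were lower (16.7%, against 18.6% of all). With DESeq2 and the same block, 3 were higher, and STE6 lost its call.

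The translation machinery was higher in the Ccr4/Pop2 degron in nearly all its branches. Cytoplasmic ribosomal protein genes had 122 of 137 members higher and 2 lower, with a median of 0.63 (0.69 and 0.58 in the pairs). RPL8A, for example, stood at 1096 and 775 CPM in the Ccr4/Pop2 degron, against 444 and 358 CPM in the Dcp2 degron (1.21 ± 0.13). The 2 exceptions were RPL22B (-0.52 ± 0.13, adjusted p = 0.0127) and RPL15B (-0.98 ± 0.17), the minor copy of its pair. Translation elongation and termination had 13 of 17 genes higher and 0 lower (median 0.82), including SUP35, the release factor eRF3 (1.12), RLI1, which recycles ribosomes (1.08), HYP2, the factor eIF5A (1.04), and the elongation factor 3 gene YEF3 (0.93). Translation initiation had 20 of 29 higher and 0 lower (median 0.54), led by TIF4632, an eIF4G gene (1.36), and the eIF3 subunit genes RPG1 (1.18) and NIP1 (1.17). Aminoacyl-tRNA synthetases had 16 of 21 higher and 0 lower (median 0.57). Ribosome biogenesis had 76 of 128 higher and 2 lower, ESF1 (-1.02) and FAF1 (-0.54), with a median of 0.56. All 5 lists exceeded the 19.6% of all genes called higher. FAF1 lost its call with DESeq2.

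Mitochondrial classes were higher as well. Of 74 mitochondrial ribosomal protein genes, 41 were higher (55.4%, against 19.6% of all genes) and 0 lower (median 0.57), led by MRPL3 (1.45 ± 0.18), at 93.6 and 108 CPM in the Ccr4/Pop2 degron and 35.5 and 37.9 CPM in the Dcp2 degron. ATP synthase had 11 of 15 genes higher (73.3%) and 0 lower (median 0.74), with ATP20 at 1.09 and ATP2 at 0.95. The respiratory chain had 12 of 24 higher (50%) and 1 lower, against 18.6% of all genes lower (median 0.61). QCR10 and RIP1, both of complex III, gave 1.61 and 1.42, and COX7 and COX5A, both of complex IV, gave 1.22 and 1.05. COX5B, the alternative form of COX5A, was the gene that was lower (-0.43 ± 0.15, adjusted p = 0.0488), a call lost with DESeq2, and the cytochrome c gene CYC1 had -0.07 and was not called. In the tricarboxylic acid cycle, 7 of 15 were higher (46.7%) and 1 lower.

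Many mitochondrial transcripts carry, after the stop codon, the site bound by Puf3, an RNA-binding protein that recruits Ccr4-Not in yeast. The 200 bases after the stop codon were searched, on the coding strand, for TGTANATA, where N is any base. A match was present for 73 of the 74 mitochondrial ribosomal protein genes, against 765 of 4905 measured genes (15.6%) and 844 of 6008 coding genes of the reference (14.0%). The windows below show the match in capitals for COX17, TUF1, CYT2, MRPL11 and MRP1, genes of mitochondrial copper delivery, translation and cytochrome assembly, from the RefSeq R64 assembly (sacCer3). They lie at XII:131155-131184 (minus strand), XV:685421-685450 (plus), XI:277153-277182 (minus), IV:99267-99296 (plus) and IV:1170183-1170212 (plus), and each is read 5′ to 3′ on the coding strand.
COX17: caaccatttctTGTATATAtaagaataggt
TUF1: aattttatacgTGTAAATAaagtgccataa
CYT2: acaactattccTGTAAATAaaaacataccc
MRPL11: ctattcaatcaTGTACATAcatcatcaaaa
MRP1: ttggtagtctcTGTAAATAtataaagtcaa
These transcripts differed in size of response. TUF1 stood at 247 and 244 CPM in the Ccr4/Pop2 degron, against 135 and 130 CPM in the Dcp2 degron (0.89 ± 0.15, adjusted p = 0.00224), while CYT2 gave 0.88, MRPL11 0.84 and COX17 0.47, the last between -0.33 and 1.31 when 1 library was left out. MRP1, at 107 and 175 CPM in the Ccr4/Pop2 degron and 92.3 and 134 CPM in the Dcp2 degron, was not called (0.31 ± 0.16). Outside the mitochondrial ribosomal proteins, 139 of 692 genes with a match were higher (20.1%), against 784 of 4139 without one (18.9%), beside 19.6% of all genes. Of the same genes, 97 with a match were lower (14.0%), against 816 without one (19.7%), beside 18.6% of all. The difference was not tested. A match is a description of the sequence, not evidence of binding.

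Chaperone, cell wall, cell cycle and histone lists each had over 19.6% of their genes higher and under 18.6% lower, the shares of all genes. Of 30 chaperone genes 19 were higher (63.3%) and 1 lower (median 0.64), with HSP82, the inducible Hsp90, at 1675 and 821 CPM in the Ccr4/Pop2 degron and 667 and 219 CPM in the Dcp2 degron (1.601 ± 0.16). The mitochondrial chaperonin HSP60 (1.28) and the Hsp40 gene SIS1 (1.20) followed, while SSA3, a stress-inducible Hsp70, was lower (-1.14), a call lost with DESeq2. SSA3 did not have 20 or more reads in all 4 libraries. Of 46 cell wall genes 30 were higher (65.2%) and 4 lower (8.70%), with a median of 0.66. Its extremes belong to a single protein family: PIR1 stood at 578 and 340 CPM in the Ccr4/Pop2 degron, against 175 and 104 CPM in the Dcp2 degron (1.71 ± 0.14). PIR3 stood at 21.5 and 29.1 CPM in the Ccr4/Pop2 degron, against 151 and 346 CPM in the Dcp2 degron (-3.12 ± 0.21, adjusted p = 8.24e-05). Among G1 cyclins and S-phase genes 13 of 26 were higher (50%) and 1 lower, including the ribonucleotide reductase gene RNR1 (2.02), the cyclin gene PCL1 (1.85), RFA1, a subunit of replication protein A (1.43), and POL30, the replication clamp (1.41). Among G2/M and M/G1 genes 17 of 31 were higher (54.8%) and 0 lower, including the B-type cyclin gene CLB2 (1.26), but 8 were higher with DESeq2. Histone genes had 7 of 11 higher (63.6%) and 0 lower (median 0.51).

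**Figure D3:**
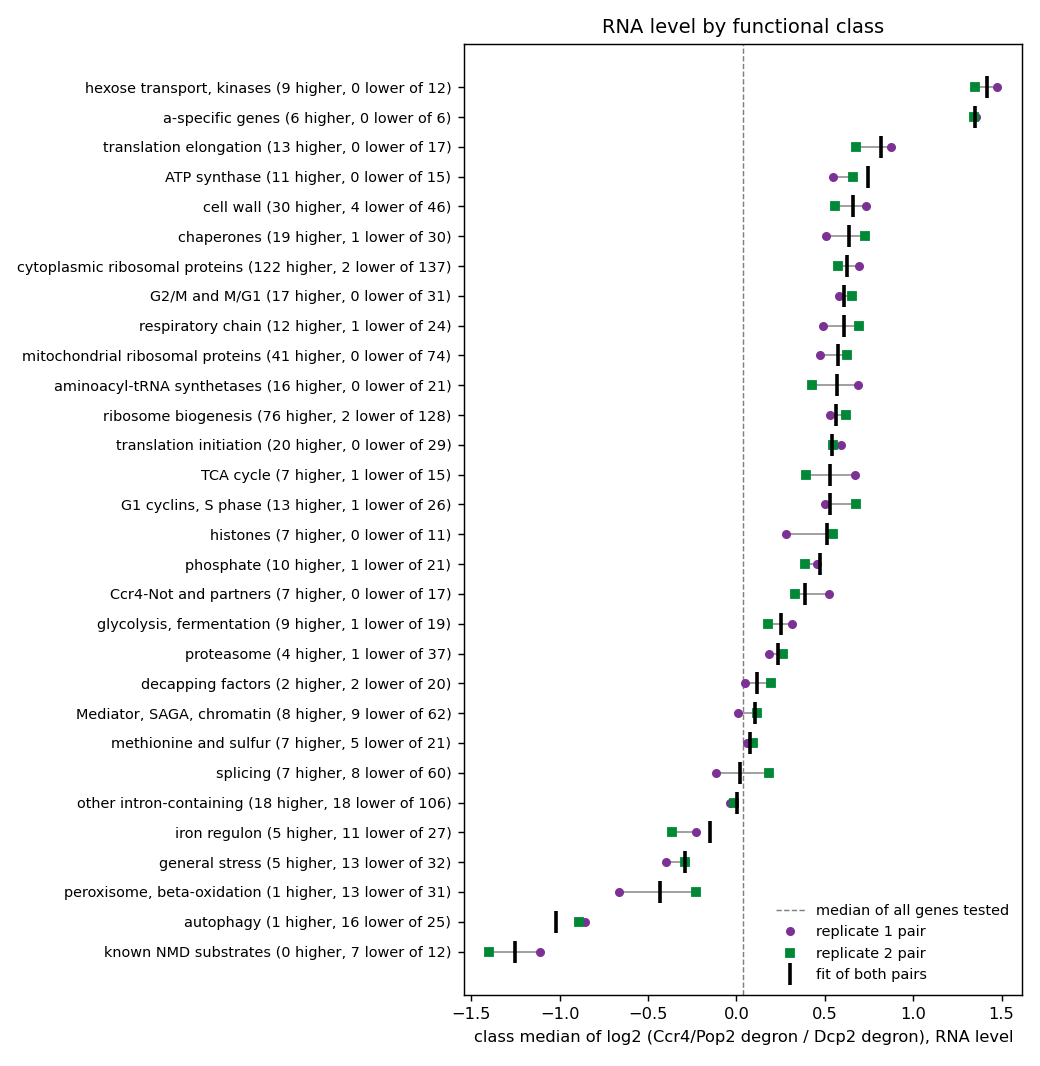
Class medians of the log2 level difference (x axis, Ccr4/Pop2 degron over Dcp2 degron) for 30 functional classes, given for the replicate 1 pair, the replicate 2 pair and the fit of both. Hexose transport (1.42) and a-specific genes (1.35) stand at the top, known NMD substrates (-1.25) and autophagy (-1.02) at the bottom, and splicing, Mediator and other intron-containing genes near the dashed median of all genes (0.04).

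Fewer classes were lower in the Ccr4/Pop2 degron, that is, higher in the Dcp2 degron. Among 12 transcripts known as NMD substrates, 7 were lower and 0 higher, against 18.6% of all genes lower, with a median of -1.25 (-1.11 and -1.40 in the pairs). TEN1, a subunit of the telomere-capping complex CST, stood at 8.95 and 25.4 CPM in the Ccr4/Pop2 degron, against 53.3 and 170 CPM in the Dcp2 degron (-2.65 ± 0.20, adjusted p = 9.47e-05). Its partner STN1 gave -2.14, and the telomerase subunit genes EST3 and EST2 gave -1.83 and -1.41, the last a call lost with DESeq2. NIT1, a nitrilase gene, had 10.3 and 27.6 CPM in the Ccr4/Pop2 degron and 93.6 and 124 CPM in the Dcp2 degron (-2.76 ± 0.25). The adjacent YIL165C gave -2.64, and reads may not separate these neighbours. CPA1, whose upstream reading frame triggers NMD in arginine, gave -1.16, and SPT10 -1.35. ALR1, PPR1, EST1, UPF3 and SSY5 were not called, with log2 differences between -0.82 and 0.40. No library of 1 strain overlapped the other strain for any of the 7 lower genes.

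Autophagy genes were lower in the Ccr4/Pop2 degron with 16 of 25 measured members (64.0%, against 18.6% of all genes), and 1 was higher (median -1.02, with -0.86 and -0.89 in the pairs). In yeast, Dcp2 and Dhh1 are known to keep several ATG transcripts low in rich medium. ATG12, the ubiquitin-like conjugate of Atg5, stood at 15.7 and 37.3 CPM in the Ccr4/Pop2 degron, against 86.1 and 133 CPM in the Dcp2 degron (-2.18 ± 0.21, adjusted p = 0.000257). ATG5 had 36.3 and 81.3 CPM in the Ccr4/Pop2 degron and 113 and 259 CPM in the Dcp2 degron (-1.65 ± 0.16). The third member of that conjugate, ATG16, gave -1.98, and the subunits of the initiating Atg1 complex ATG29, ATG31 and ATG13 gave -1.80, -1.58 and -1.57. ATG8, the lipid-conjugated marker of autophagosomes, gave -1.04. The protease gene ATG4, which processes Atg8, was the gene that was higher (0.80 ± 0.24, adjusted p = 0.0284), at 26.9 and 28.4 CPM in the Ccr4/Pop2 degron and 16.4 and 15.2 CPM in the Dcp2 degron. That call was lost with DESeq2. The list holds 37 genes, so 12 were not in the table.

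Peroxisome and fatty acid oxidation genes had 13 of 31 members lower (41.9%, against 18.6% of all genes) and 1 higher, PEX14 (0.74), with a median of -0.43. The lower ones include the acyl-CoA synthetase gene FAA2 (-1.93), the peroxisomal isocitrate dehydrogenase gene IDP3 (-1.54), the ubiquitin ligase gene PEX10 (-1.38) and the peroxisomal catalase gene CTA1 (-1.28). General stress genes, targets of the activators Msn2 and Msn4, had 13 of 32 lower (40.6%) and 5 higher (15.6%, against 19.6% of all genes). HSP12, a small membrane-associated stress protein, stood at 196 and 323 CPM in the Ccr4/Pop2 degron, against 413 and 807 CPM in the Dcp2 degron (-1.20 ± 0.14). The catalase gene CTT1 gave -1.38 and the aldehyde dehydrogenase genes ALD3 and ALD2 -1.29 and -1.19, while MPC3 (2.74), TMA10 (2.25), the glycerol phosphatase gene GPP2 (1.20) and the small chaperone gene HSP42 (1.14) were higher. The calls of PEX14, CTA1 and CTT1 were lost with DESeq2. FAA2, CTA1 and CTT1 did not have both 20 or more reads in all 4 libraries and the same sign in both pairs. The iron regulon had 11 of 27 lower (40.7%) and 5 higher (18.5%). Its median was -0.15, but 0.16 over the 21 genes with 20 or more reads in all 4 libraries. The reductase gene FRE2 (-3.01) and the siderophore genes ARN1 (-1.41), FIT3 (-1.28), ARN2 (-1.20) and ENB1 (-1.07) were lower. Of these, FRE2 and ARN1 did not have both 20 or more reads in all 4 libraries and the same sign in both pairs. The high-affinity oxidase and permease genes FET3 (1.28) and FTR1 (0.80) were higher.

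Other metabolic lists held calls in both directions. In methionine and sulfur metabolism 7 of 21 genes were higher (33.3%, against 19.6% of all genes) and 5 lower (23.8%, against 18.6% of all), or 3 lower with DESeq2, which lost the call of MET10. The methionine permease MUP1 (2.31), the S-adenosylmethionine permease SAM3 (1.47) and MET6 were higher, and 3 genes of sulfate assimilation were lower, with MET3, the sulfurylase, at -1.10, MET10, a sulfite reductase subunit, at -0.85, and MET14, the adenylylsulfate kinase, at -0.65. Of 8 gluconeogenesis and glyoxylate genes 4 were higher (50%) and 3 lower (37.5%). MDH2, the cytosolic malate dehydrogenase, gave 2.20. PCK1, the phosphoenolpyruvate carboxykinase, stood at 2.69 and 5.97 CPM in the Ccr4/Pop2 degron, against 36.2 and 24.3 CPM in the Dcp2 degron (-3.25 ± 0.42). Its Ccr4/Pop2 degron values rest on low counts. Phosphate genes had 10 of 21 higher (47.6%) and 1 lower, with the transporter PHO84 at 1.61 and the polyphosphate synthase subunit VTC4 at 1.53. Glycolysis and fermentation had 9 of 19 higher (47.4%) and 1 lower, with the pyruvate decarboxylase PDC1 at 0.71 and the glyceraldehyde-3-phosphate dehydrogenase TDH3 at 0.67. The CPM values of PDC1 and of TDH3 overlap between the strains. The median of the list was 0.25 and turned to -0.11 under total-count scaling.

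Where all 4 libraries held 20 or more reads, PIR3, NIT1, TEN1 and YIL165C were 4 of the 10 with the largest decreases. Of the others, the uncharacterised YNL143C stood at 5.82 and 18.7 CPM in the Ccr4/Pop2 degron, against 46.5 and 155 CPM in the Dcp2 degron (-3.02 ± 0.20, adjusted p = 8.24e-05). YOL038C-A, YOL159C-A and YCL068C gave -2.87, -2.69 and -2.44, and no function is given for them here. DUR1,2, the urea amidolyase that lets cells use urea as nitrogen, gave -2.53, and TCA17, a subunit of the TRAPP vesicle-tethering complex, gave -2.48. All of these were lower in both Ccr4/Pop2 libraries than in either Dcp2 library. In a list of reading frames in or near the ribosomal DNA, 3 of 4 were lower (75%, against 18.6% of all genes). These were TAR1 (-1.93), YLR154C-H (-1.10) and ASP3-1. Reads of TAR1 and YLR154C-H may come from ribosomal transcripts, a remark that does not extend to ASP3-1.

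Other lists had fewer calls, below the 19.6% higher and 18.6% lower of all genes. Among intron-containing genes outside the ribosomal proteins 18 of 106 were higher and 18 lower (median 0.00). Splicing had 7 of 60 higher and 8 lower (0.02), and Mediator, SAGA and chromatin had 8 of 62 higher and 9 lower (0.10). With DESeq2 these became 4 and 3 for splicing and 3 and 6 for Mediator, SAGA and chromatin. The proteasome had 4 of 37 higher (10.8%) and 1 lower (2.70%), with a median of 0.24 that turned to -0.13 under total-count scaling. Ergosterol synthesis had 4 of 25 higher and 1 lower, led by the squalene epoxidase ERG1 (1.24). Decapping factors had 2 of 20 higher, DCP2 and PAT1 (1.06), and 2 lower, the scavenger enzyme gene DCS2 (-1.18) and LSM6 (-0.42). XRN1 (-0.06), DCP1 (0.51), EDC3 (0.50) and LSM1 (-0.39) were not called. In the edgeR fit only, components and partners of Ccr4-Not exceeded the share of all genes higher, with 7 of 17 higher (41.2%) and 0 lower. These were CAF40 (1.19), the scaffold gene CDC39 (1.02), MOT2 (0.71), NOT3 (0.64), NOT5 (0.54), the RNA-binding protein gene PUF4 (0.57) and PAB1 (0.54). With DESeq2 and the same block 2 of 17 remained, CAF40 and CDC39, a share no larger than the 669 of 4907 among all genes. When 1 library was left out, PAB1 ranged from -0.76 to 1.66 and LSM6 from -1.62 to 0.76.

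Of 11 transcripts used in classic decay experiments, 7 were higher (63.6%, against 19.6% of all genes) and 1 was lower, with a median of 0.54. The higher ones were MFA2, PGK1, ACT1, CYT2, TUF1, COX17 and PAB1. MFA2, an unstable transcript, stood at 289 and 241 CPM in the Ccr4/Pop2 degron, against 100.5 and 85.5 CPM in the Dcp2 degron (1.51 ± 0.15, adjusted p = 0.000319). PGK1, a stable one, had 6639 and 4642 CPM in the Ccr4/Pop2 degron and 4099 and 3254 CPM in the Dcp2 degron (0.60 ± 0.11). ACT1 gave 0.61, between -0.38 and 1.499 when 1 library was left out, and CYT2 gave 0.88. RPS28B and YRA1, which in yeast are decapped through Edc3 without prior deadenylation, were not called, with -0.21 ± 0.12 and 0.08 ± 0.15. HIS3 had -0.10 and was not called, and GAL1, at 7.16 and 5.22 CPM in the Ccr4/Pop2 degron and 14.4 and 15.7 CPM in the Dcp2 degron, was called lower (-1.19 ± 0.37), from 7 to 64 counts, and lost the call with DESeq2.

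Tail lengths were then centred by subtracting each library's median on the log2 scale, so that a gene is read against the typical gene of its own library. After centring, no gene passed in limma (0 of 4274, 0.0%), and 836 had an unadjusted p under 0.05. The count was 1471 without Dcp2 replicate 1 and 2133 without Dcp2 replicate 2, in fits without the block. Directions were partly shared, since 1231 genes were relatively longer in both pairs (28.8%) and 1582 relatively shorter in both (37.0%). The 2 pairs correlated across genes at a Spearman coefficient of 0.442. The class values below are therefore descriptions without a call.

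The raw tail difference was smallest in several classes of metabolic and translation genes. In translation elongation 14 of 16 genes were relatively shorter in both pairs, against 37.0% of all genes, with a centred median of -0.30 (-0.36 and -0.26 in the pairs), where all genes had -0.02. YEF3 had a median tail of 40.1 and 42.8 nt in the Ccr4/Pop2 degron and 40.6 and 45.5 nt in the Dcp2 degron, values that overlap between the strains, while the median gene differed by 16.2 nt. EFT2, for elongation factor 2, had 40.3 and 44.1 nt in the Ccr4/Pop2 degron and 40.2 and 44.4 nt in the Dcp2 degron. Aminoacyl-tRNA synthetases were relatively shorter in both pairs for 20 of 21 genes (centred median -0.21), cytoplasmic ribosomal proteins for 110 of 137 (-0.21), glycolysis and fermentation for 14 of 17 (-0.30) and purine synthesis for 20 of 25 (-0.21). The cell wall had 33 of 43 (-0.25) and hexose transport and phosphorylation 10 of 12 (-0.29), where the class medians were 59.3 and 59.1 nt in the Ccr4/Pop2 degron and 44.6 and 52.4 nt in the Dcp2 degron. HXT4 had 62.4 and 63.1 nt in the Ccr4/Pop2 degron and 57.8 and 57.7 nt in the Dcp2 degron.

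Other classes were relatively longer in the Ccr4/Pop2 degron. The respiratory chain had 13 of 24 genes relatively longer in both pairs (centred median 0.15, with 0.25 and 0.01 in the pairs), histones 6 of 11 (0.15), and mitochondrial ribosomal proteins 31 of 74 (0.07, with 0.12 and -0.01). Known NMD substrates had 5 of 9 (0.14) and autophagy 8 of 17 (0.14), beside 28.8% of all genes. TEN1 had 62.1 and 61.7 nt in the Ccr4/Pop2 degron and 30.2 and 35.4 nt in the Dcp2 degron, a log2 difference of 0.92 before centring (limma adjusted p = 0.000183) and 0.37 after it. ATG8 had 61.9 and 60.4 nt in the Ccr4/Pop2 degron and 29.7 and 34.9 nt in the Dcp2 degron (0.37 after centring). Neither gene's ranges overlapped. Among chaperones, HSP82 had 38.2 and 41.4 nt in the Ccr4/Pop2 degron, against 12.8 and 27.6 nt in the Dcp2 degron, while SSB1 and SSB2, the ribosome-bound Hsp70 genes, had centred differences of -0.47 and -0.51.

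Among genes with at least 50 reads in all 4 libraries, the 5 largest relative increases were CIS1, SNT309, STE18, RRG7 and RAD27, with centred differences of 0.85, 0.83, 0.82, 0.81 and 0.79. RAD27, the flap nuclease of DNA replication, had 46.6 and 48.4 nt in the Ccr4/Pop2 degron and 13.6 and 25.8 nt in the Dcp2 degron. STE18, the G-protein gamma subunit of the pheromone pathway, had 42.7 and 43.5 nt in the Ccr4/Pop2 degron and 13.7 and 20.2 nt in the Dcp2 degron. In each of the 5, Dcp2 replicate 1 held the lowest value, between 13.6 and 17.5 nt. The 5 largest relative decreases were YLR154C-G, which lies within ribosomal DNA, RRP5 of ribosome biogenesis, YEF3, the aconitase gene ACO1 and the phosphofructokinase gene PFK2, with centred differences of -0.78, -0.63, -0.61, -0.59 and -0.57. YLR154C-G had 53.0 and 51.2 nt in the Ccr4/Pop2 degron and 59.6 and 62.2 nt in the Dcp2 degron, where most genes were shorter.

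**Figure D4:**
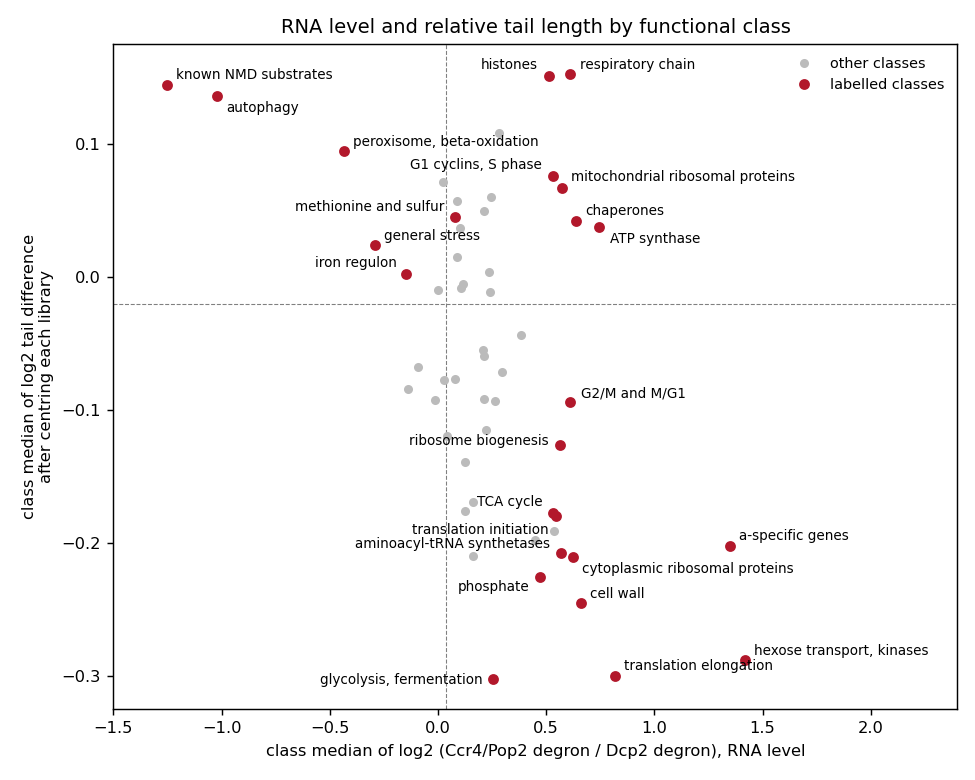
Class median of the log2 level difference (x axis) against class median of the log2 tail difference after centring each library (y axis), both Ccr4/Pop2 degron over Dcp2 degron, for the classes with at least 5 genes measured for tail length. Dashed lines mark the medians of all genes (0.04 and -0.02). Translation elongation (0.82, -0.30) and hexose transport (1.42, -0.29) lie at the lower right, NMD substrates (-1.25, 0.14) and autophagy (-1.02, 0.14) at the upper left, and the respiratory chain (0.61, 0.15) and histones (0.51, 0.15) at the upper right.

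Across 4274 genes, the level difference and the centred tail difference correlated at a Spearman coefficient of -0.406. Taking each measure from a different pair gave -0.455 (level of pair 1, tail of pair 2) and -0.137 (level of pair 2, tail of pair 1), so the size rests on the choice of pair. Among the classes that departed from this order were respiratory and mitochondrial ribosomal genes, higher in level without relatively shorter tails. Their centred tail medians were 0.25 and 0.12 in the replicate 1 pair. In the replicate 2 pair they were 0.01 and -0.01, near the -0.02 of all genes, so the relative lengthening lay mainly in the replicate 1 pair. The departure was not particular to these classes. Histones had centred tail medians of 0.15 and 0.07 in the replicate 1 and 2 pairs. Chaperones had 0.07 and 0.07, G1 cyclins and S-phase genes 0.15 and 0.04, and ATP synthase -0.03 and 0.09.

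Codon content was related to both measures across genes. Preferred codons here are 23 codons read by abundant transfer RNAs in yeast. Genes were ranked by the share of these codons into 10 groups of equal size. In the top group (63.7% to 97.5% preferred codons) 62.9% of genes were higher and 6.56% lower, with a median of 0.53. In the bottom group (25.5% to 40.6%) 6.504% were higher and 33.7% lower, with a median of -0.29. The Spearman coefficient with the level difference was 0.348 over 4905 genes, 0.375 and 0.264 in the 2 pairs, and 0.312 without the ribosomal proteins. With the centred tail difference it was -0.386. Abundance moves with codon content, and the coefficient within 4 equal groups by mean abundance, from the least to the most abundant genes, was 0.0997, 0.213, 0.296 and 0.450. The part of abundance in the relation was not tested further.

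The opening 30 codons are shown for 4 genes chosen for their level calls, 2 higher and 2 lower, with preferred codons in capitals, from the RefSeq R64 assembly. YEF3 lies at XII:636780-639914 (plus strand), HXT7 at IV:1154216-1155928 (minus), ATG5 at XVI:271310-272194 (plus) and TEN1 at XII:167320-167802 (minus), and the stretches shown are exonic.
YEF3: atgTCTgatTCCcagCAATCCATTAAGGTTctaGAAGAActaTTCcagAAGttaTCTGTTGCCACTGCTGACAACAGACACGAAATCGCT
HXT7: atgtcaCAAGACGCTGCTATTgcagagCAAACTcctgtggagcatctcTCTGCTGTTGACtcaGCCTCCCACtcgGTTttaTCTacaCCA
ATG5: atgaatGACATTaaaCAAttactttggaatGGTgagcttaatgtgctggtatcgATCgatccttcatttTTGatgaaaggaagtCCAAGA
TEN1: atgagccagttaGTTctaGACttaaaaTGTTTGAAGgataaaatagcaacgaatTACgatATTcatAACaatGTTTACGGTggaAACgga
Of these 30 codons, 23 are preferred in YEF3, 17 in HXT7, 8 in ATG5 and 12 in TEN1. Over the whole coding sequence the shares are 90.3%, 79.7%, 44.96% and 44.8%. YEF3 and HXT7, both in the top group, were higher in the Ccr4/Pop2 degron. ATG5 and TEN1 were lower and lie in group 4, near the median of all genes (46.5%), not in the bottom group.

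**Figure D5:**
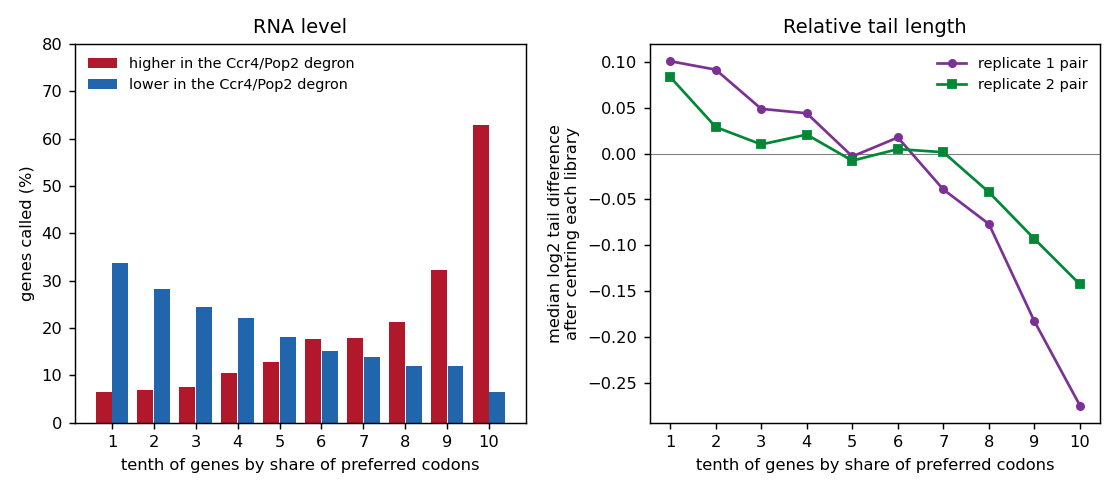
Left, share of genes called higher or lower in the Ccr4/Pop2 degron (y axis, %) in 10 groups of genes by share of preferred codons (x axis, 1 lowest). Right, median log2 tail difference after centring each library in the same groups, for each replicate pair. Calls of higher level run to 62.9% in the top group, calls of lower level to 33.7% in the bottom group, and the top group has the lowest relative tails in both pairs.

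Promoter letters were set beside the classes as well. Windows of 250 bases before to 50 bases after the start codon in the R64 reference were searched on both strands. The PAC element GATGAG occurred in 115 of 128 ribosome biogenesis genes (89.8%), a class that was higher, and in 20.4% of 6007 promoters. RNA polymerases I and III had PAC in 23 of 35 genes (65.7%), with 7 higher and 8 lower. The tRNA modification list had it in 28 of 45 genes (62.2%), with 8 higher and 4 lower. The stress element AGGGG occurred in 20 of 32 general stress genes (62.5%), a class with 40.6% lower, against 21.6% of all. It also occurred in 11 of 24 respiratory chain genes (45.8%), a class with 50% higher. Vacuolar proteases had it in 8 of 10 genes, with 1 higher and 1 lower. The proteasome element GGTGGC occurred in 32 of 37 proteasome genes (86.5%), a class with 10.8% higher and 2.70% lower, against 6.93% of all. Whether a motif goes with the direction of a class was not tested.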

How the data were processed

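Direct RNA nanopore libraries (kit SQK-RNA002) were analysed. Per the submitters' processing notes, minimap2 and SAMtools 1.9 were used with the build sacCer3. The rule for assigning reads to genes and the use of strand are not given in the sources used here. Per the file headers, the authors deposited for each gene and library a raw count and a median, read here as a poly(A) tail length in nt. The authors' deposited group signal (mean raw count) and its log2 value were not used, and 0 per-sample columns lacked a matching sample. Of 4909 gene names, 4908 matched RefSeq R64, the same assembly as sacCer3.

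Levels were tested with edgeR 4.0.16 in R 4.3.3 (TMM, filterByExpr, which removed 2 genes, glmQLFit and glmQLFTest, replicate number as a block, 4 libraries). Log2 tails were tested with limma 3.58.1, raw and after centring each library, and the raw fit gave every gene the same standard error. P-values were adjusted by Benjamini-Hochberg over all genes and called under 0.05. The level and raw tail fits were also run on simulated data with a replicate effect built in. The planted tail changes were 2 on the log2 scale, larger than the median difference of 0.53 here, and the centred fit was not simulated. Those runs therefore cannot tell whether the calls hold. The labels give equal replicate numbers without saying what they share. Deviations of same-numbered libraries correlated at 0.793 for log2 CPM (depth-scaled counts) and 0.0467 for log2 tail over genes. Replicates of a group differed beyond sampling noise (chi-square per degree of freedom 109 in the Ccr4/Pop2 degron and 41.2 in the Dcp2 degron). The first value may be too high, since replicate 1 counts of that degron were all multiples of 4 and may not be separate reads. The 2 values therefore cannot be compared. In 11 genes the counts equal those of another gene in all 4 libraries.

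The compared genes, the 57 class lists and the tests were chosen with earlier results of these data known. In 14 cases a list entry that went against the annotation was removed. Genes were named by rule: the targeted genes, the 10 largest called differences in each direction with 20 reads in all libraries and the same sign in both pairs, up to 4 such members of each class, the members of 5 short lists of decay and mating genes, and the 5 largest centred tail differences in each direction. Further members were named after their values were seen, and 1 gene that the rule names is not reported here. Depth limits single genes: 3 counts correspond to 0.355 to 2.81 CPM.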

Additional observations from a re-analysis of the deposited data

How the results depend on the processing

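Without the replicate block no gene was called for level (0, also with the counts of Ccr4/Pop2 replicate 1 divided by 4, an alternative added after seeing the data), while DESeq2 with the block called 1238 genes (669 higher, 569 lower). Total-count, RLE, unfiltered and stricter-filter fits, the 6-library fit and division by 4 with the block gave between 1843 and 2311 calls. Leaving out 1 library at a time, in fits that can hold no replicate term, gave 54 to 389 level calls, 1 to 4172 raw tail calls and 0 to 2133 centred tail calls, and the median gene's tail difference ranged from 12.5 to 19.9 nt. Raw tail calls were 1894 with 50 reads required, 2298 without the replicate block, and 2857 to 3555 otherwise. Centred tail calls were 0 without the replicate block, with a variance trend, in 6 libraries, with equal interquartile ranges and after division by 4, but 48 with 10 reads, 194 with 50 reads, 125 with no minimum and 309 in nt. The cause was not tested.

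Of 130 genes named by rule and called for level, 9 lost the call with DESeq2 and 24 under total-count scaling. Members named after their values were seen are not in this count. Among those, FAF1, COX5B, SSA3, EST2, ATG4, PEX14, CTA1, CTT1 and MET10 lost the call with DESeq2, as given above. Direction turned for some when 1 library was left out. The lowest and highest values were -0.088 and 1.32 for DED81, -0.054 and 1.21 for YDR341C, -0.38 and 1.499 for ACT1, -0.12 and 1.31 for PFK2, -0.33 and 1.31 for PFK1, -0.20 and 1.45 for HTA1, -0.057 and 1.97 for EFT2, -0.76 and 1.66 for PAB1, -0.33 and 1.31 for COX17 and -1.62 and 0.76 for LSM6.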

Other observations

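Several classes outside the results above had more calls in 1 direction. The CCT chaperonin and prefoldin had 7 of 15 genes higher in the Ccr4/Pop2 degron and 1 lower (median 0.45), mitochondrial import 10 of 32 higher and 1 lower (0.30), and the nuclear pore 12 of 46 higher and 1 lower (0.26), beside 19.6% of all genes higher. The nuclear pore median turned to -0.10 and that of mitochondrial import to -0.07 under total-count scaling. With DESeq2 the nuclear pore had 5 of 46 higher, a share no larger than the 669 of 4907 among all genes. RNA polymerases I and III were split, with 7 of 35 higher and 8 lower, as were redox genes, with 8 of 31 higher and 6 lower, and plasma membrane transporters, with 10 of 41 higher and 7 lower. Coding length correlated with the centred tail difference at a Spearman coefficient of -0.211 and with the level difference at 0.0536 across genes.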
